A study of Homo sapiens with 2 samples.

Results

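The 2 gastric cancer (GC) cell lines of the study, MKN45 and MKN74, were compared here with each other in their control state, after transfection with a negative control siRNA. On each array this culture carried the green dye Cy3, so that the comparison was between samples of the same dye. A gene was taken as measured where its probe was well above the local background in Cy3 on at least 1 of the 2 arrays, and 14671 of the 20735 named genes on the array met that rule. Each value is MKN45 minus MKN74 on the log2 scale, where 1 is a 2-fold difference.

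Both lines had been electroporated with siRNA at 50 nM and RNA was taken 48 hrs later, as total RNA of the whole culture. The other culture of each line received siRNA against SET7/9 (gene SETD7, a lysine methyltransferase) and carried the red dye Cy5. Each line was represented by 1 array, and both arrays lay on 1 slide that was scanned once. Line, culture and array therefore cannot be told apart, no test between the lines was possible, and no p-value is given. In bulk RNA, fewer cells expressing a gene and less RNA per cell cannot be told apart.

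As background, MKN74 was established from a moderately differentiated tubular adenocarcinoma and MKN45 from a poorly differentiated one. MKN45 is known for amplification of MET, which encodes the receptor for hepatocyte growth factor, and for secretion of carcinoembryonic antigen. Gastric cancers often carry genes of the gut lineage, under transcription factors of the forkhead and GATA families that also build the normal foregut, and these factors differ between gastric cancer lines.

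Of the 14671 genes, 12201 were well above background on both arrays, 1720 only in MKN45 and 750 only in MKN74. Of 34125 probes, 59.7% were well above background in MKN45 and 54.7% in MKN74, and no spot was saturated. For a gene seen in 1 line only, the fold is a lower bound and is written "at least". It was taken against the lowest signal that still counted as well above background on the dim array (log2 3.61 in MKN45 and 4.45 in MKN74). Where the gene's own reading on the dim array lay above that signal, the reading was used in its place. The error after ± is the scanner's error model for 1 spot on each array, with a median of 0.20 (log2) for genes measured on both. Repeated spots of a probe had a pooled SD of 0.11 in MKN45 and 0.10 in MKN74. These errors are technical and hold no spread between cultures.

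**Figure D1:**
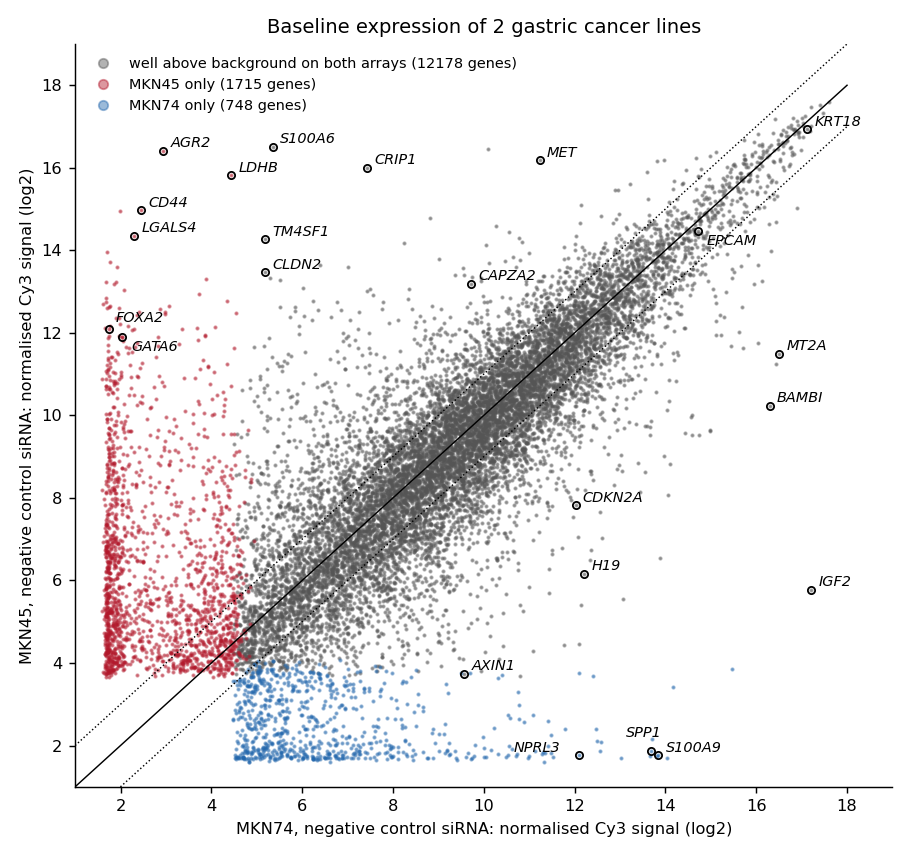
Normalised Cy3 signal (log2) of each gene in MKN74 (x axis) and MKN45 (y axis), negative control siRNA, 1 array per line, Y-linked genes, XIST and TSIX left out; solid line, equal signal, dotted lines, 2-fold. Most genes lie along the diagonal, while AGR2, LDHB and CD44 (red, seen only in MKN45) and SPP1 and S100A9 (blue, seen only in MKN74) lie far from it.

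The lines differed widely. At least 2-fold higher in MKN45 were 2649 genes, or 18.1% of those measured, and at least 2-fold higher in MKN74 were 3314, or 22.6%. Among genes measured on both arrays, the shares were 14.4% and 21.3%. Differences of 16-fold or more were found for 427 genes higher in MKN45 and for 248 higher in MKN74. The median over all genes was −0.05. This split depends on the scaling: MKN45 was the higher line in 44.4% of the genes past 2-fold here, in 57.3% after centring each array on its median, and in 53.1% after scaling to the 75th percentile. Median centring moved the median of all genes from −0.05 to 0.14, and small differences stand relative to that shift.

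Both lines were epithelial by their markers. KRT18, a keratin of simple epithelia, read 16.93 in MKN45 and 17.13 in MKN74 (log2 signal), and EPCAM, an epithelial adhesion molecule, read 14.48 and 14.71. CDH1, which encodes E-cadherin, read 12.94 and 12.05. All 10 epithelial markers (CDH1, EPCAM, KRT8, KRT18, KRT19, CLDN4, CLDN7, ESRP1, GRHL2 and ELF3) were well above background in both lines. Of these, CLDN4, CLDN7 and ESRP1 were at least 2-fold higher in MKN74 and ELF3, an epithelial ETS factor, at least 2-fold higher in MKN45. Few markers of other cells were measured: 5 of 14 blood cell markers were measured, with a summed log2 signal of 10.15 in MKN45 and 10.12 in MKN74, 2 of 10 fibroblast markers (5.75 and 7.58) and 3 of 10 endothelial markers (5.59 and 6.20). Of the blood cell markers, CD79A read 9.94 in MKN45 and 9.21 in MKN74, CD3D 3.87 and 7.54, CD68 6.36 and 8.11, CD14 5.12 and 5.34, and PTPRC, the pan-leukocyte marker, 4.50 and 3.83 (not well above background in MKN74). COL1A1, of the fibroblast list, read 5.33 and 7.55. What part these markers have in any difference was not tested. The defining markers VWF and COL3A1 were not measured in either line.

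Genes of the gut epithelium were often higher in MKN45. In the intestinal epithelium list, 29 of 40 measured genes were at least 2-fold higher in MKN45 and 3 were higher in MKN74, against 18.1% and 22.6% of all genes, with a median of 3.60. In the gastric mucosa list, 18 of 27 were higher in MKN45 and 4 in MKN74, with a median of 3.66. Most of these genes were seen in MKN45 only and could not come out higher in MKN74. Well above background in MKN45 and MKN74 were 38 and 14 of the intestinal genes, and 25 and 10 of the gastric genes. Of the genes listed, 40 of 80 and 16 of 43 were not measured. The medians ran from 0.67 to 4.35 and from −0.22 to 5.63 over the alternatives. Over the members measured on both arrays, the median was 1.15 for the intestinal list (12 genes) and −0.22 for the gastric list (8 genes), so the gastric list stood apart only through genes that were not well above background in MKN74.

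AGR2, a protein disulfide isomerase of mucus-secreting cells, read 16.42 in MKN45 and 2.94 in MKN74, at least 3994-fold higher in MKN45. TSPAN8, a tetraspanin of the gut epithelium, read 14.96 and 1.99, at least 1459-fold higher. LGALS4, a galectin of the intestinal lining, read 14.35 and 2.31, at least 956-fold higher. None of the 3 was well above background in MKN74. SPINK4, a goblet cell peptide, and AGR3, a close relative of AGR2, were at least 615-fold and at least 438-fold higher in MKN45. Other members, named after their values were seen, were the trefoil peptide TFF3 (a bound of 8.14), the lectin REG4 (8.29), the microvillus protein VIL1 (7.44) and the carbonic anhydrase CA2 (7.47).

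Of the stomach genes, SPINK1, a trypsin inhibitor, was at least 210-fold higher in MKN45. VSIG1, an adhesion molecule of the gastric epithelium, was at least 146-fold higher, CTSE (cathepsin E) at least 112-fold and ANXA10, an annexin of gastric mucosa, at least 110-fold. CLDN18, the stomach-type claudin, read 9.92 in MKN45 and 1.80 in MKN74, at least 44.1-fold higher in MKN45. Not all stomach genes ran this way. GAST, which encodes gastrin, had a bound of −4.05, higher in MKN74, and PGC, which encodes pepsinogen C, read 4.20 in MKN45 and 5.11 in MKN74. Genes of differentiated gastric glands, such as ATP4A and ATP4B of the proton pump, LIPF and GKN1, were not measured in either line. The gut factors CDX2 and CDX1 differed by 0.07 and 0.29 only.

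The CEACAM genes, a family of cell surface adhesion molecules that includes carcinoembryonic antigen, included some of the largest bounds. CEACAM5, which encodes carcinoembryonic antigen itself, read 13.18 in MKN45 and 1.86 in MKN74, at least 424-fold higher in MKN45. CEACAM6 read 13.04 and 2.08, at least 385-fold higher, and CEACAM1 read 12.53 and 5.84, a difference of 6.69 ± 0.23. In all, 5 of the 8 measured members of the CEACAM and PSG families were higher in MKN45 and 2 in MKN74. Of all genes, 18.1% and 22.6% were. Of the 3 measured on both arrays, CEACAM1 was at 6.69, CEACAM19 at 0.06 and CEACAM20 at −1.30, so the direction of the group rests on members seen in MKN45 only, and its median ran from 0.007 to 6.67 over the alternatives. These probes detect closely related genes, and how far they share signal was not tested. A second CEACAM7 probe ran the other way (−4.21 against 6.90), so CEACAM7 is uncertain.

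Transcription factors that build the gut were higher in MKN45 as well. In the list of endoderm transcription factors, 23 of 37 genes were at least 2-fold higher in MKN45 and 4 higher in MKN74, with a median of 1.67. Of all genes, 18.1% and 22.6% were. All 37 were well above background in MKN45 and 23 in MKN74, so 14 entered only through the line where they were high. The median was 0.97, under 2-fold, over genes measured on both arrays, and ran from 0.95 to 1.88 over the alternatives. FOXA2, a forkhead pioneer factor of the endoderm, read 12.09 in MKN45 and 1.74 in MKN74, at least 199-fold higher in MKN45. GATA6, a zinc finger factor of the foregut, read 11.90 and 2.04, at least 175-fold higher. FOXA1, FOXA3, GATA4 and SOX2 were also higher in MKN45, by 4.06 for FOXA1 and by bounds of 4.25, 3.70 and 5.61 for the others. The lowest of the 4 GATA4 probes gave 0.0. The 4 factors higher in MKN74 were HES1 and the ID genes, which encode partners that block DNA binding by helix-loop-helix factors: ID3 by −5.39 ± 0.24, ID2 by −3.34 and ID1 by −3.06.

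Since FOXA2 and GATA6 were seen in MKN45 alone, the promoters of the stomach and gut genes were searched for short words of these families. Sequence came from RefSeq (build GRCh38.p14), as the 250 bases before the annotated start, and both strands were searched. The words were AGATAA for the GATA family and TGTTTAC for the forkhead family. A promoter entry was matched for 32 of the 47 members of the stomach and gut lists that were at least 2-fold higher in MKN45. AGATAA was present in 6 of 32 (18.8%) against 11.1% of the 27305 genes with a promoter entry, and TGTTTAC in 2 of 32 (6.25%) against 3.66%. In the other measured members of these lists, AGATAA was present in 2 of 14 (14.3%) and TGTTTAC in 1 of 14 (7.14%). Either word was present in 7 of 32 (21.9%) against 14.1%, and in 2 of 14 of the other measured members with an entry. These are counts of letters with no test, in a group chosen by its values, and a match is not a bound site.

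Promoters of 3 genes with large bounds that hold a word are shown as examples. Either word was present in only 7 of the 32 matched promoters, so these 3 do not stand for the group. Upstream bases only are given, 5′ to 3′ on the gene's strand, with matches in capitals. AGR2 lies on the minus strand at chr7:16805000-16805249, with an AGATAA starting 119 bases upstream. SPINK4 lies on the plus strand at chr9:33239917-33240166, with overlapping AGATAA words 57 and 52 bases upstream. TSPAN8 lies on the minus strand at chr12:71158000-71158249, with TGTTTAC 53 bases upstream.
AGR2: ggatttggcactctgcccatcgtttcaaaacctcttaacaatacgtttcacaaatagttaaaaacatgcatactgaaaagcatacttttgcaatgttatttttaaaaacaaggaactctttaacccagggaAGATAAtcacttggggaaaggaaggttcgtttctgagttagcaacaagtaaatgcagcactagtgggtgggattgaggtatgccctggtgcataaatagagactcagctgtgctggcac
SPINK4: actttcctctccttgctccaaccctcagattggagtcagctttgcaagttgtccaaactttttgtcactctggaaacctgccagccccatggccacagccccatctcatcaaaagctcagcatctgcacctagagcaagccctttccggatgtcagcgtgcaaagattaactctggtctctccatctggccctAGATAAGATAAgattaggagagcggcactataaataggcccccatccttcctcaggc
TSPAN8: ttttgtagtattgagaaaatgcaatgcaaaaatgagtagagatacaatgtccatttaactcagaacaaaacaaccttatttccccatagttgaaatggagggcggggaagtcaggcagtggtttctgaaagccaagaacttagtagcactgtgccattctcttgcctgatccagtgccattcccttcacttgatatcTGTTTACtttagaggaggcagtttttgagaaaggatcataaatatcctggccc

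HOX genes, which encode homeodomain factors that set position along the body axis, were often higher in MKN45. Of 30 measured, 19 were at least 2-fold higher in MKN45 and 0 at least 2-fold higher in MKN74, with a median of 1.38. Of all genes, 18.1% and 22.6% were. However, 11 of the 30 were well above background in MKN45 only and could not come out higher in MKN74. The median of HOX genes was 1.18 over the 19 measured on both arrays and ran from 0.62 to 2.08 over the alternatives. HOXC4 read 11.57 in MKN45 and 6.77 in MKN74, a difference of 4.80 ± 0.21. HOXB2 and HOXB8 had bounds of 5.95 and 5.53, and the posterior genes HOXA13 and HOXB13 bounds of 5.03 and 4.35. The other probe of HOXB2 gave 1.04. Members of all 4 clusters were among those higher in MKN45, HOXD1 being the 1 from the HOXD cluster (2.57, named after its value was seen).

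**Figure D2:**
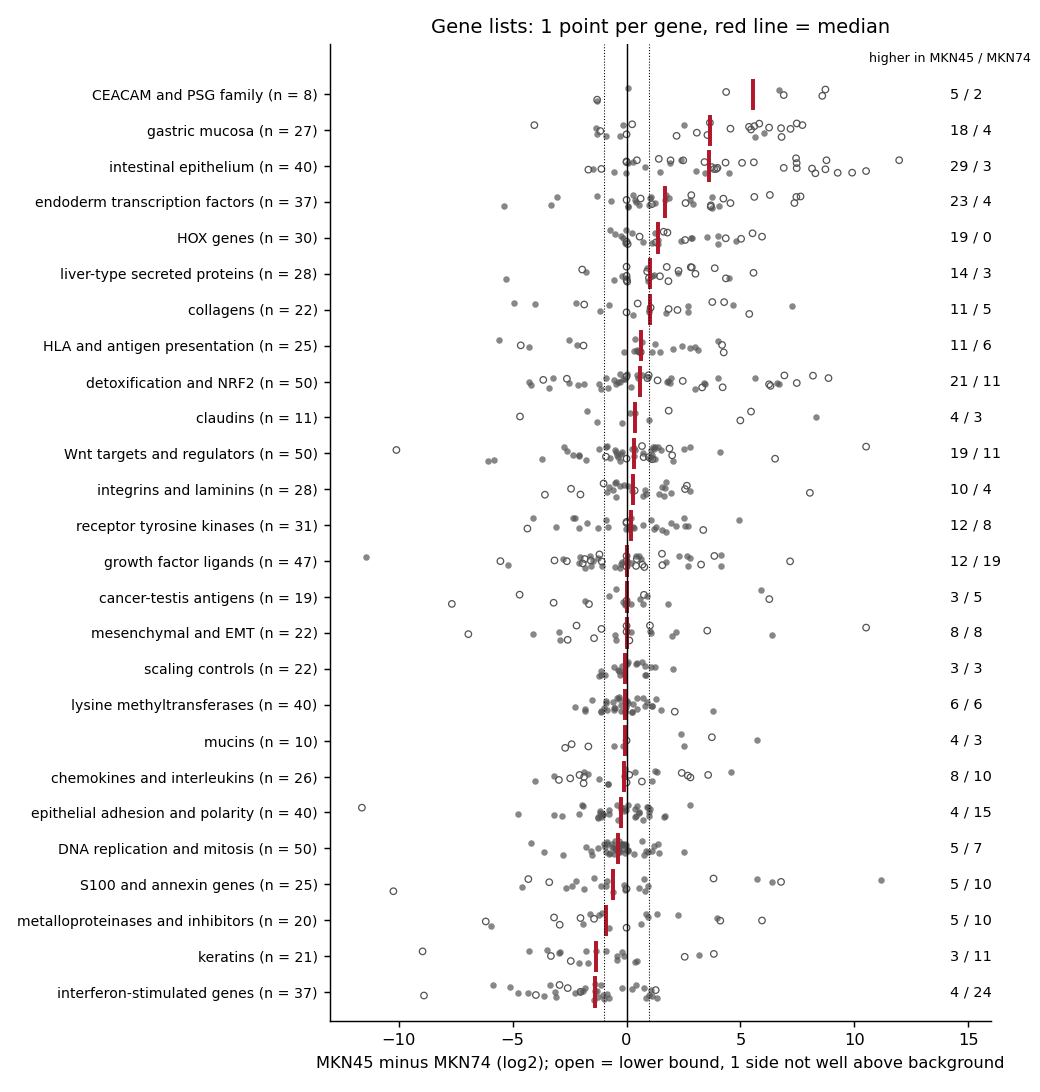
MKN45 minus MKN74 (log2) for each measured gene of 26 gene lists; filled points were well above background on both arrays, open points are lower bounds, red lines are list medians and dotted lines 2-fold. The CEACAM, gastric, intestinal, endoderm factor and HOX lists lie to the right, the interferon-stimulated genes and keratins to the left.

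In the other direction, interferon-stimulated genes were higher in MKN74. These genes answer type I interferon and viral RNA. Of 37 measured, 24 were at least 2-fold higher in MKN74 and 4 at least 2-fold higher in MKN45, against 22.6% and 18.1% of all genes. The median was −1.40 and ran from −1.40 to −0.91 over the alternatives, so it fell under 2-fold in some. IRF7, a transcription factor of the interferon response, read 2.10 in MKN45 and 12.50 in MKN74, at least 474-fold higher in MKN74. IFI27 read 6.49 and 12.34, a difference of −5.85 ± 0.21. IFIT1, IFIT2 and IFIT3, which bind foreign RNA, differed by −4.78, −5.11 and −4.30. The exceptions were OAS1, EPSTI1, OASL and PARP14, at 1.35, 1.28, 1.12 and 1.09.

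Several keratins, the intermediate filament proteins of epithelia, were also higher in MKN74. Of 21 keratin genes measured, 11 were at least 2-fold higher in MKN74 and 3 in MKN45, against 22.6% and 18.1% of all genes. The median of the keratins was −1.36 and ran from −1.49 to −0.36 over the alternatives. KRT23 read 1.87 in MKN45 and 12.56 in MKN74, at least 495-fold higher in MKN74, and KRT81 read 11.75 and 16.04 (−4.29 ± 0.20). Higher in MKN45 were KRT7, at 3.18 ± 0.20, and KRT6B and KRT5, with bounds of 3.83 and 2.55. The keratins of simple epithelium, KRT8, KRT18 and KRT19, stayed within 2-fold. Keratin probes of near-identical genes (KRT6A, KRT6B, KRT6C and KRT81, KRT86) may share signal.

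Genes of epithelial adhesion and polarity were mostly within 2-fold (21 of 40). Of the 40, 15 were higher in MKN74 and 4 higher in MKN45, against 22.6% and 18.1% of all genes. GRHL3 and GRHL1, grainyhead factors of epithelial barriers, differed by −4.77 and −3.18 (other GRHL1 probe −0.91). Among claudins, which form tight junctions, CLDN2, a pore-forming one, was 8.30 ± 0.27 higher in MKN45 and CLDN9 had a bound of −4.68. The median of the adhesion and polarity list (−0.24) was close to that of all genes, and that of the claudins was 0.36.

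In the S100 and annexin families of calcium-binding proteins, members differed in opposite directions. S100A6 had the largest difference among genes measured on both arrays in favour of MKN45: it read 16.50 in MKN45 and 5.36 in MKN74, or 11.15 ± 0.26. S100A4 read 16.46 and 10.08 (6.38 ± 0.20) and S100A2 12.39 and 6.64 (5.74). S100A9, a calprotectin subunit, read 1.77 and 13.84, at least 1203-fold higher in MKN74, and its partner S100A8 had a bound of −4.31. S100A14, a neighbour of S100A6 on chromosome 1, differed by −4.59. The family count was 5 higher in MKN45 and 10 higher in MKN74 of 25, against 18.1% and 22.6% of all genes.

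The genes with the largest differences outside these groups were as follows. Seen in MKN45 only were LDHB, a subunit of lactate dehydrogenase, at 15.82 against 4.44 (at least 2639-fold), CD44, the hyaluronan receptor, at 14.97 against 2.46 (at least 1461-fold), MGST1, a microsomal glutathione transferase (at least 727-fold), and OCIAD2 (at least 569-fold). LDHA, the other main subunit of lactate dehydrogenase, read 14.59 in MKN45 and 14.97 in MKN74. Measured on both arrays, TM4SF1, a surface protein of the tetraspanin-like group, was 9.08 ± 0.28 higher in MKN45, CRIP1, a LIM protein, 8.58, and MID1IP1, a regulator of fatty acid synthesis, 8.04. Next were BEX3 at 7.79, COL4A2 at 7.25, the heat shock gene HSPA1A at 7.11, the Notch glycosyltransferase LFNG at 7.08 and TXNIP, an inhibitor of thioredoxin, at 6.78. The other probe of LFNG gave 1.34.

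In favour of MKN74, the largest difference measured on both arrays was that of IGF2, which encodes insulin-like growth factor 2. IGF2 read 5.77 in MKN45 and 17.21 in MKN74, or −11.45 ± 0.22, and its other probe gave −7.02. CRABP2, a retinoic acid carrier, differed by −7.65 (other probe −1.66), FBXO2 by −7.50, the kallikrein KLK8 by −7.33 and ICAM1, an adhesion molecule for leukocytes, by −6.78. BAMBI, a decoy receptor of the TGF-β family, read 10.24 and 16.30 (−6.06). Seen in MKN74 only were SPP1, which encodes osteopontin (at least 1071-fold), the long non-coding RNA UCA1 (at least 1177-fold), the cytidine deaminase gene APOBEC3G (at least 1057-fold), LY6K (at least 1364-fold) and the protease inhibitor gene TFPI2 (at least 680-fold). WNT6, a Wnt ligand, read 2.17 and 13.71, at least 1098-fold higher in MKN74. SLC2A14 had a bound of −10.56, but its probe may also detect the near-identical glucose transporter gene SLC2A3.

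Receptor tyrosine kinases, the cell surface receptors of many growth factors, differed in level, with 27 of 31 measured in both lines. Of the 31, 12 (38.7%) were at least 2-fold higher in MKN45 and 8 (25.8%) in MKN74, against 18.1% and 22.6% of all genes. MET (probe at chr7:116438290-116438349 of GRCh37) read 16.18 in MKN45, with an SD of 0.12 over 9 spots, and 11.24 in MKN74. The difference was 4.95 ± 0.20, or 30.9-fold. FGFR2 differed by 2.69 (its other probe by 0.18), FGFR1 had a bound of 3.37, and MST1R, a relative of MET, differed by 2.54 (named after its value was seen). Higher in MKN74 were PTK7 (a bound of −4.35) and the related receptors AXL and TYRO3, at −4.10 ± 0.21 and −3.09 ± 0.21. ERBB2 and EGFR stayed within 2-fold, at 0.29 and −0.89, though a second ERBB2 probe gave −1.87.

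Among growth factor ligands, 12 of 47 (25.5%) were higher in MKN45 and 19 (40.4%) higher in MKN74, against 18.1% and 22.6% of all genes. Besides IGF2, AREG, an EGFR ligand, read 9.52 in MKN45 and 14.74 in MKN74 (−5.22 ± 0.20), and PDGFC had a bound of −5.54. The insulin-like growth factor binding proteins IGFBP7 and IGFBP2 went the other way, with a bound of 7.18 and a difference of 4.16. In the Wnt list, 19 of 50 were higher in MKN45 and 11 in MKN74. DKK1, a secreted Wnt inhibitor, had a bound of 6.52 and LGR4, an R-spondin receptor, differed by 4.09, both higher in MKN45. The feedback targets AXIN2, LEF1, SP5 and ZNRF3 (named after their values were seen) differed by −2.36, −3.72, −2.10 and −2.07, higher in MKN74. They do not stand for the Wnt list, in which more genes were higher in MKN45 and the median was 0.33.

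Detoxification genes differed in both directions. Of 50 measured, 21 were higher in MKN45 and 11 in MKN74. UGT1A6, a glucuronosyltransferase whose probe may detect other genes of the shared UGT1A locus, was at least 465-fold higher in MKN45. ADH1C, an alcohol dehydrogenase, was at least 290-fold higher, ALDH3A1 at least 177-fold and ALDH1A1 at least 122-fold, while AKR1B1 and GPX2 differed by 6.70 and 6.58. The efflux pump gene ABCC2 (−4.28) and the cytochrome gene CYP1A1 (a bound of −3.65) were higher in MKN74. Known targets of the factor NRF2 (named after their values were seen) ran both ways. AKR1B10, AKR1C3 and AKR1C1 were at 5.63, 4.03 and 3.45 (lowest AKR1C1 probe 0.05). SLC7A11, SRXN1, TXNRD1 and HMOX1 were at −4.17, −3.39, −3.23 and −2.53, and GCLM and NQO1 at 0.20 and −0.14. Liver-type secreted proteins were higher in MKN45 in 14 of 28 cases and in MKN74 in 3, against 18.1% and 22.6% of all genes. Of the 28, 27 were well above background in MKN45 and 12 in MKN74, and 25 of the 53 listed were not measured. The list median ran from 0.35 to 2.17 over the alternatives. Among them APOC1 and APOE, neighbours on chromosome 19, differed by 4.50 and −5.29.

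Matrix and protease genes differed in both directions. The basement membrane collagens COL4A2 and COL4A1 were higher in MKN45, by 7.25 and by a bound of 5.39, and the cartilage-type COL9A3 and COL9A2 higher in MKN74, by −4.94 and −4.02. In the collagen list 11 of 22 were higher in MKN45 and 5 in MKN74, against 18.1% and 22.6% of all genes. Of the 22, 21 were well above background in MKN45 and 14 in MKN74. Those seen in MKN45 only could not come out higher in MKN74. The list median ran from −0.03 to 1.62 over the alternatives. LAMA3, a laminin chain, had a bound of 8.05, although its other probe gave 2.68, in a list of integrins and laminins with 10 of 28 higher in MKN45 and 4 in MKN74. PLAU, which encodes urokinase, had a bound of 5.94 (other probe 1.41) and PLAT, which encodes the tissue plasminogen activator, a bound of −6.18. TIMP2, a metalloproteinase inhibitor, read 8.08 and 14.05 (−5.97 ± 0.20). Of 20 metalloproteinase and inhibitor genes, 5 were higher in MKN45 and 10 in MKN74.

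Antigen presentation genes were higher in MKN45 in 11 of 25 cases (44.0%) and in MKN74 in 6 (24.0%), against 18.1% and 22.6% of all genes. PSMB8, an immunoproteasome subunit, had a bound of 4.26 and HLA-F differed by 4.03. ULBP1 and ULBP2, ligands of the NK cell receptor NKG2D, differed by −5.60 and −4.28. Probes for HLA genes can depend on the alleles a line carries, which was not tested. Of the other lists, chemokines and interleukins had 8 higher in MKN45 and 10 in MKN74 of 26, mesenchymal genes 8 and 8 of 22, mucins 4 and 3 of 10, and cancer-testis antigens 3 and 5 of 19. Among mucins, MUC1 differed by 5.72 in favour of MKN45 (lowest of its probes 1.98). Among cancer-testis antigens, MAGEB2 was at least 203-fold higher in MKN74, and CT83 at least 76.9-fold and MAGEA6 60.4-fold higher in MKN45, with the caution that MAGEA genes are near-identical.

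DNA replication and mitosis genes mostly stayed within 2-fold. Of 50 measured, 38 stayed within 2-fold, 5 were higher in MKN45 and 7 in MKN74, against 18.1% and 22.6% of all genes. CDKN2A, the cell cycle inhibitor gene, was the largest difference in that list, at 7.82 in MKN45 and 12.02 in MKN74 (−4.20 ± 0.21, other probe −6.24). CDC25B, CCND3 and MCM5 were higher in MKN74 by −3.62, −2.80 and −1.78, and CCND2 higher in MKN45 by 2.54. Of 40 lysine methyltransferases and related genes, 6 were higher in each line. SETD7, the gene the study silenced, read 7.60 in MKN45 and 8.46 in MKN74, a difference of −0.86 that is under 2-fold (other probe 0.28). PRDM16 (3.80) and SMYD3 (−2.28) were the largest each way.

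The 12 genes the study followed are the silenced gene itself, genes it chose with these arrays and a neighbour of one of them, so their values are given as a description of the control state. MMP7 read 8.57 in MKN45 and 2.40 in MKN74, at least 17.3-fold higher in MKN45, and MMP1 read 6.75 and 5.42 (1.32). IL11 read 3.99 and 8.01 (−4.02 ± 0.32), MMP9 4.99 and 6.90 (−1.91) and CWC27 9.84 and 10.95 (−1.11), these 3 being higher in MKN74. The other 7, PGC, SETD7, CXCL2, CCDC28B, SREK1IP1, PHF21A and RASL10B, stayed within 2-fold. Of 22 genes often used for scaling, 16 stayed within 2-fold with a median of −0.06. GAPDH, a common internal control, read 15.32 and 16.46 (−1.14, SD over 10 spots 0.04 and 0.07), and YWHAZ and TBP differed by −1.19 and −1.13. GUSB, B2M and HPRT1 differed by 2.03, 1.26 and 1.05. ACTB and RPLP0 differed by −0.28 and 0.39.

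Some of the differences lay next to each other along chromosomes. All 8 measured genes within 1 Mb of MET were at least 2-fold higher in MKN45, where 18.1% of all genes were, with a median of 2.43. Of the 8, 6 were measured on both arrays, and the rest were seen in MKN45 only. CAPZA2, which encodes an actin capping subunit, read 13.19 in MKN45 and 9.72 in MKN74 (3.47 ± 0.20), ST7 read 11.02 and 7.47 (3.55 ± 0.21), and TES, CAV1 and CAV2 were 4.35-fold, 3.01-fold and 2.82-fold higher. In windows of 11 consecutive measured genes, the highest median of the genome (3.13) was the window from MET to FAM3C, where 11 of 11 genes were at least 2-fold higher in MKN45. It spans 4.55 Mb, chr7:116438290-120989898. Of its 11 genes, 7 were measured on both arrays. The rest were seen in MKN45 only and could not come out higher in MKN74. The next were a window on chromosome 11 from FZD4 to CEP295 (9 of 11, median 2.87) and one on the X chromosome from TCEAL8 to H2BW1 (10 of 11, median 2.85), which holds the BEX and TCEAL genes. In the chromosome 11 window 8 genes were measured on both arrays, and in the X chromosome window only 4. The rest of each were seen in MKN45 only. The median of the X chromosome window ran from 1.44 to 3.61 over the alternatives. Of the other 15 fixed loci, none had a neighbourhood median past 2-fold either way.

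At CDKN2A, on chromosome 9, the neighbours MTAP, a purine salvage enzyme gene, and KLHL9 were not well above background in MKN45. MTAP read 1.69 in MKN45 and 8.89 in MKN74, at least 38.8-fold higher in MKN74, and KLHL9 2.21 and 9.99, at least 83.3-fold higher. The other 3 measured neighbours within 1 Mb (FOCAD, IFNA4 and DMRTA1) had differences or bounds under 2-fold. Only 1 of the 5 neighbours was measured on both arrays, and a bound under 2-fold does not show that a gene stayed within 2-fold. Around GATA6, by contrast, 1 of 7 neighbours was past 2-fold, GREB1L with a bound of 1.67, and around CD44 the neighbours were split 2 and 2 of 7. SMAD4, a mediator of TGF-β signalling, read 1.87 in MKN45 (SD 0.33 over 9 spots, not well above background) and 6.69 in MKN74, at least 8.44-fold higher in MKN74, while 1 of its 7 neighbours was past 2-fold (SKA1, −1.41).

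A run of genes near the tip of chromosome 16, chosen after its values were seen, was higher in MKN74. In order along the chromosome, MPG read 1.61 in MKN45 and 11.33 in MKN74 and NPRL3 1.76 and 12.09. LUC7L then read 3.67 and 10.81, FAM234A 2.59 and 11.40, and AXIN1 3.74 and 9.57. The folds were at least 211 for MPG, at least 357 for NPRL3, 140 for LUC7L, at least 222 for FAM234A and 56.6 for AXIN1, a scaffold of the β-catenin destruction complex. The globin genes HBZ, HBM and HBQ1, which lie between NPRL3 and LUC7L, differed by −0.66, a bound of −0.92 and −1.62. The next genes on either side were less different, RHBDF1 at −0.16 and MRPL28 at −1.74, and WDR90 further in was 4.88 higher in MKN45. Within 1 Mb of AXIN1, 18 of 41 neighbours were at least 2-fold higher in MKN74 and 1 in MKN45, against 22.6% and 18.1% of all genes.

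On chromosome 11, IGF2 and H19, an imprinted pair of neighbours, were both higher in MKN74. H19, a long non-coding RNA, read 6.16 in MKN45 and 12.22 in MKN74 (−6.06 ± 0.22), and IGF2-AS and TNNT3 nearby had −4.26 and a bound of −3.62. MRPL23, between TNNT3 and H19, differed by 0.10, and ASCL2, beyond IGF2, was 5.65-fold higher in MKN45. Within 1 Mb of IGF2, 17 of 35 neighbours were higher in MKN74 and 5 in MKN45, against 22.6% and 18.1% of all genes. The median of these neighbours was −0.65, under 2-fold, and ran from −0.65 to −0.37 over the alternatives. This locus too was chosen after its values were seen.

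The lowest window median of the genome (−3.82) lay on chromosome 22, chr22:20761079-21355565, where 9 of 11 genes were at least 2-fold higher in MKN74. It holds CRKL, an adaptor of growth factor signalling, which read 6.57 in MKN45 and 10.39 in MKN74 (−3.82 ± 0.21), MED15, a mediator subunit (−3.72), PI4KA, a lipid kinase (−3.42), and LZTR1 (−3.99). AIFM3, which lies between CRKL and LZTR1, ran the other way at 1.75. The window from TXNRD2 to TMEM191B, also on chromosome 22 and less than 1 Mb away, had a median of −2.85 with 10 of 11 genes higher in MKN74. Between them in rank was the metallothionein cluster on chromosome 16 (median −3.81). There MT2A, which encodes a zinc- and copper-binding protein, read 11.50 in MKN45 and 16.51 in MKN74 (−5.01 ± 0.20). MT1X and MT1E differed by −4.60 and −3.81, MT1M had a bound of 1.99 the other way, and MT3 differed by 0.39. Metallothionein probes are for near-identical genes and are not independent readings.

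**Figure D3:**
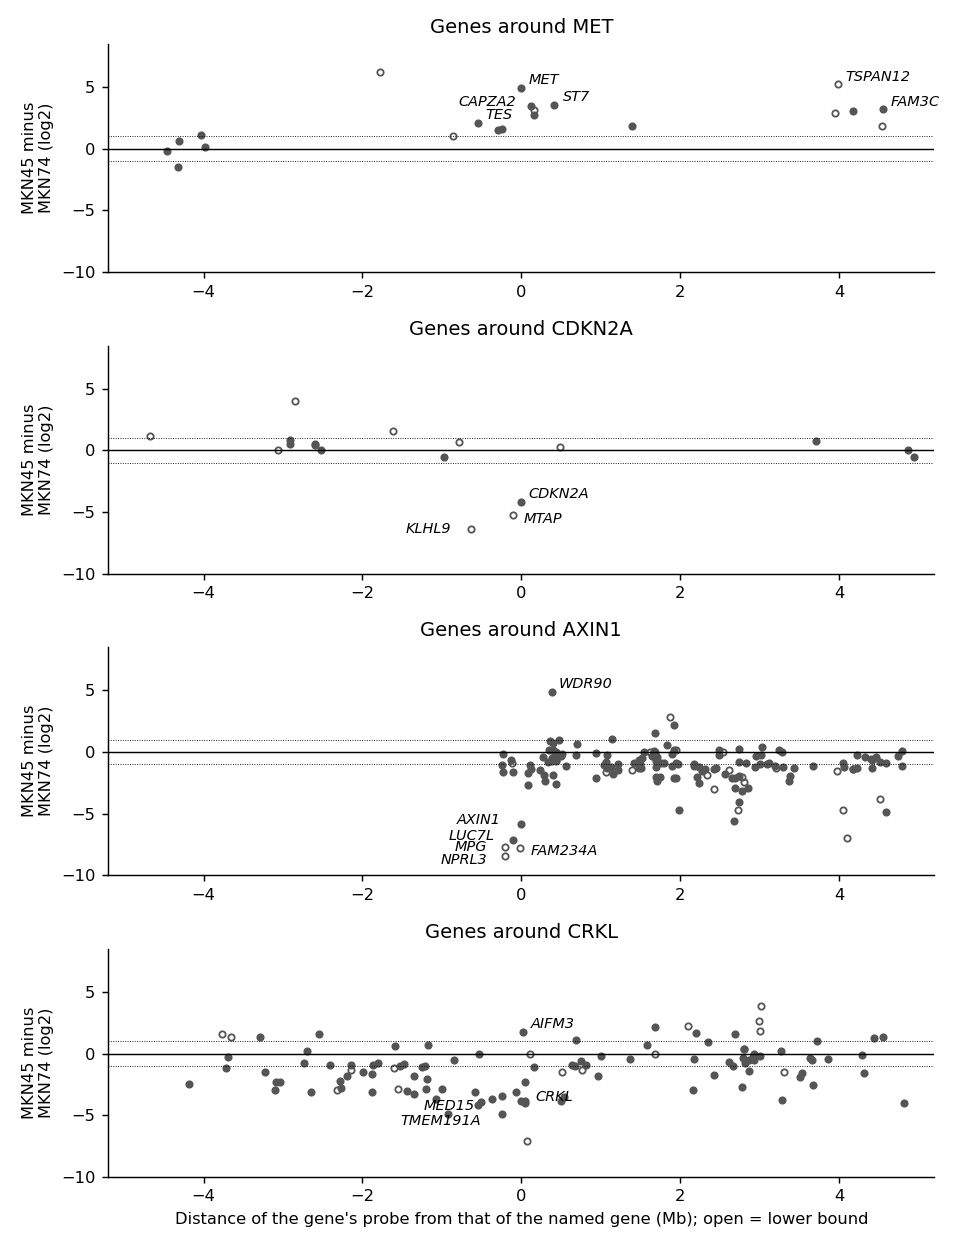
MKN45 minus MKN74 (log2) of measured genes against the distance (Mb) of their probe from that of MET, CDKN2A, AXIN1 and CRKL; filled points were measured on both arrays, open points are lower bounds, dotted lines are 2-fold. All 8 genes within 1 Mb of MET lie at or above 1.01, while MTAP and KLHL9, the genes from MPG to AXIN1 other than the globins, and most genes around CRKL lie well below 0.

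Whole chromosomes differed too. On chromosome 22, 186 of 369 genes (50.4%) were at least 2-fold higher in MKN74 and 8.94% higher in MKN45, with a median of −1.02. Chromosome 20 followed with 42.6% higher in MKN74 (median −0.76), then chromosome 4 with 37.7% (median −0.74) and chromosome 9 with 32.5%, against 22.6% of all genes. In favour of MKN45 were the X chromosome with 34.1% (median 0.47), chromosome 18 with 27.5% and chromosome 3 with 27.2%, against 18.1% of all genes. Over the alternatives the median ran from −1.05 to −0.63 on chromosome 22, from −0.80 to −0.35 on chromosome 20 and from −0.78 to −0.31 on chromosome 4. With no filter on dim probes the medians of the X chromosome and chromosomes 18 and 3 dropped to 0.048, 0.066 and 0.048.

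**Figure D4:**
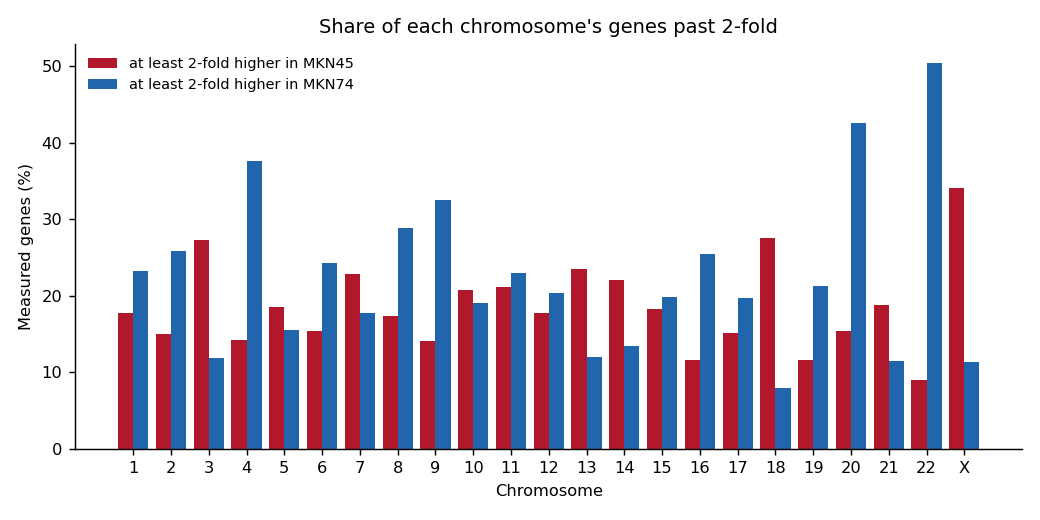
Percent of the measured genes of each chromosome that were at least 2-fold higher in MKN45 (red) or MKN74 (blue), 1 array per line; the Y chromosome is left out. Chromosome 22 has the tallest bar in favour of MKN74 (50.4%) and the X chromosome the tallest in favour of MKN45 (34.1%).

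The SET7/9 siRNA culture of each line, read in Cy5 on the same arrays, gave the line difference again in other cells. It is not a replicate of the control culture, since siRNA and dye differ, and both dyes share the array. Over 12172 genes well above background in all 4 channels, the difference in Cy5 correlated with that in Cy3 with r = 0.99 (Spearman's rho 0.98, across genes, which are not independent). The 2 differences lay 0.11 apart at the median, with an SD of 0.22. Of 5952 genes past 2-fold that had a Cy5 value, 5549 were past 2-fold the same way and 3 had the opposite sign. MET differed by 5.07 in Cy5, S100A6 by 11.09, IGF2 by −10.20 and CRKL by −3.87. MAGEA1 was a gene where they lay further apart, at −1.81 in Cy3 and −3.22 in Cy5.

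**Figure D5:**
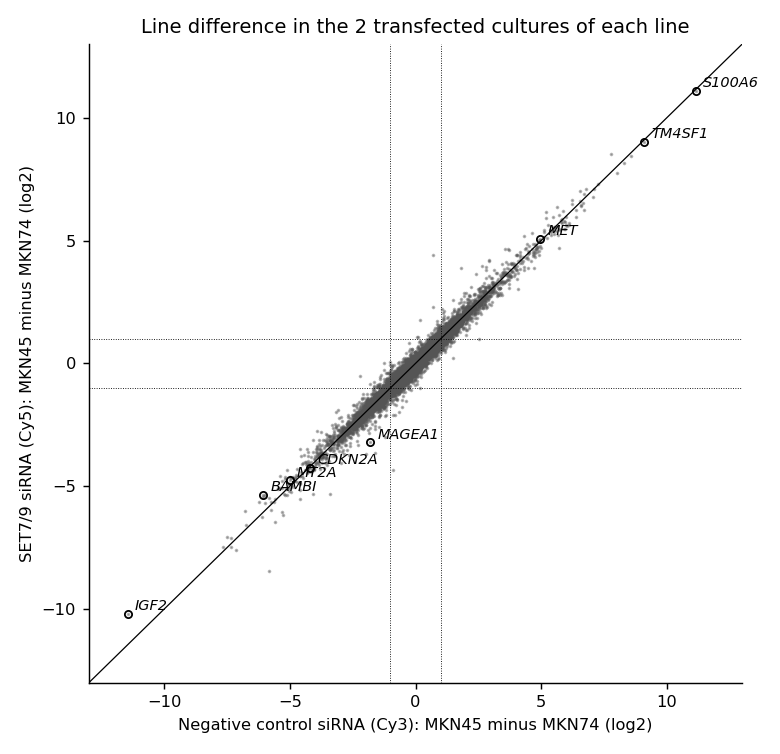
MKN45 minus MKN74 (log2) in the negative control siRNA cultures (Cy3, x axis) and in the SET7/9 siRNA cultures (Cy5, y axis) for genes measured on both arrays in Cy3; solid line, equal difference, dotted lines, 2-fold. Genes such as S100A6 (11.15 and 11.09) and MET (4.95 and 5.07) lie close to the line.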

How the data were processed

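Total RNA of MKN74 and MKN45 was hybridised by the authors to Agilent human 4x44K v2 arrays, 1 array per line, with the negative control siRNA culture in Cy3 and the SET7/9 siRNA culture in Cy5 and no dye swap. The deposited files hold spot intensity from Agilent Feature Extraction 10.7.3.1. The processed intensity was background-subtracted and dye-normalised within each array by linear and lowess steps, so Cy3 signal carries a correction set against the Cy5 culture. The 317 and 306 Cy3 spots flagged as outliers (MKN74, MKN45) were left out, log2 signal was averaged per probe and quantile-normalised between arrays, and a gene was read from its brightest kept probe, well above background in at least 50% of its spots. Of 27134 probes with a RefSeq accession, 25771 were matched to the RefSeq gene table and 2175 kept probes have no gene name. Whether a probe lies in an exon or an untranslated part was not analysed here.

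Genes named were the 15 largest differences and 10 largest bounds each way, the 6 largest of each list, fixed loci with their neighbours, and the study's follow-up and scaling genes. Other genes named in the text were chosen after their values were seen. Y-linked genes, XIST and TSIX were left out, and some other genes are not reported here. The lists, the loci and the comparison itself were chosen with earlier results of these data known. With 1 array per line there is no test, and the number of arrays limits the precision. The deposited log ratios of Cy5 over Cy3 and the authors' value table were not used. Alternatives were median centring, 75th percentile scaling, normexp, other filters on dim probes, outlier spots kept, the median over a gene's probes, other fold cutoffs, the Cy5 channel and the mean of both channels, with limma 3.58.1 (R 4.3.3) for normexp with an offset of 50. The rest was computed in Python 3.11.15 (numpy 2.4.6, pandas 2.3.3) and tested on simulated data.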

Additional observations from a re-analysis of the deposited data

How the results depend on the processing

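No paired analysis was possible because each line has 1 array, and leaving out an array would end the comparison. Of 294 named genes past 2-fold, all kept their direction where they had a value under the 10 alternatives, except COL11A2, which was −0.22 when only probes well above background on both arrays were used. Under that filter 1759 genes were at least 2-fold higher in MKN45, 6 gene lists in place of 10 had a median past 2-fold, and the gastric mucosa median was −0.22. With normexp background correction 1908 genes were higher in MKN74 and 3 lists were past 2-fold, and 239 of the 294 genes stayed past it. With no filter on dim probes 4 lists were past 2-fold and the collagen median was −0.035. At a cutoff of 4-fold, 1237 genes were higher in MKN45 and 1221 in MKN74. With the dim line at its own value, an alternative added after seeing the data, 2 loci in place of 1 had a neighbourhood median past 2-fold. The causes were not tested. The median within 1 Mb of MET ran from 1.59 to 3.11 over the alternatives, that of the MET window from 2.74 to 3.55 and that of the CRKL window from −3.82 to −2.88. Signal near background limits the folds of genes seen in 1 line, which are bounds.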
